A study of Mus musculus with 2 samples.

Results

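The tight junction genes described here are 9 genes of the mouse pancreatic cancer line KPCY, chosen by symbol from the 33696 features of 1 single-cell library: the claudins Cldn1, Cldn3, Cldn4, Cldn6, Cldn7 and Cldn12, and Ocln, F11r and Tjp1. The library pooled clones 76 and 84 of the KPCY 6419c5 line, labelled as pancreatic ductal adenocarcinoma of mouse pancreas, in equal numbers after 19 days of editing. Both clones were grown from single cells sorted after transfection with Cas12a-ABE, an adenine base editor built on the enzyme Cas12a and used in the lineage-tracing system BASELINE. Each clone thus stands for 1 cell of the line, and there was no replicate library. The series' other sample, a pool of clones 1, 32, 33, 52 and 76, is not analysed here.

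The clone of each cell is not known here, so cells were placed by marker genes in 2 groups called A and B, which are not clone labels. A cells had at least 2 unique molecular identifiers (UMIs, each counted as 1 captured RNA molecule) of Pde10a, Plcb1, Galnt18, Arhgap15 and Ceacam1, and at least 3 times as many of these as of the B genes. B cells met the mirror rule for S100a7a, Rgs20, Hs6st2, Ccbe1, Ctse and Mal. These 11 genes had been picked earlier from this same library for their large differences, and none is a tight junction gene. Of 22178 barcodes, 21361 reached 2000 UMIs and 1000 detected genes without exceeding 15% mitochondrial UMIs, and of these 7816 were A cells, 8936 were B cells and 4609 were neither. The median was 4699.5 UMIs per A cell and 5440.5 per B cell, with 3.19% and 1.89% mitochondrial UMIs, and both groups carried the epithelial list of Krt8, Krt18, Krt19, Cdh1 and Epcam (5 of 5 genes in each group at 1 CPM or more, where CPM is a gene's summed UMIs scaled to 1000000 UMIs of the group). The fibroblast list summed to 0.844 CPM in A cells and 0.891 CPM in B cells with Col1a2, Dcn and Lum at 0 in both, and the endocrine list to 3 UMIs in each group. The endothelial list summed to 4.37 and 0.947 CPM with Kdr and Emcn at 0 and Tek at 138 and 8 UMIs, the immune list to 1.56 and 0.739 CPM, and the acinar list to 13.7 and 4.38 CPM with Cpa1, Ctrb1 and Amy2a5 at 0, Prss2 at 403 and 222 UMIs and Cela1 at 147 and 9 UMIs.

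Tight junctions seal the space between neighbouring epithelial cells near their apical edge. Claudins are small membrane proteins that pass the membrane several times and form the strands of the junction, and the claudins a cell makes set which ions and solutes can pass between cells. Occludin (Ocln) is a second kind of strand protein, F11r encodes the immunoglobulin-like adhesion protein JAM-A, and Tjp1 encodes ZO-1, the cytoplasmic scaffold that ties strands to actin. In ductal epithelium of the pancreas these proteins hold the seal around the duct lumen, and carcinoma cells that move towards a mesenchymal state commonly lose claudins and occludin.

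The promoters of Cldn6, Cldn3 and Cldn4 are shown because Cldn6 and Cldn3 differed between the groups in opposite directions, and Cldn4 is the neighbour of Cldn3 that was close to 0 in both. Each sequence is the 250 bases before the gene's start, read 5′ to 3′ on the gene's strand, from RefSeq on build GRCm38.p6. The counts were made on another build, GRCm39 per the submitters' processing notes, and no coordinate was carried between them. Capitals mark CACCTG, which reads CAGGTG from the opposite strand, an E-box form that Snail and Zeb repressors are known to bind. The Cldn6 window is chr17:23679115-23679364 on the plus strand, the Cldn3 window chr5:134985964-134986213 on the plus strand and the Cldn4 window chr5:134946935-134947184 on the minus strand.
Cldn6: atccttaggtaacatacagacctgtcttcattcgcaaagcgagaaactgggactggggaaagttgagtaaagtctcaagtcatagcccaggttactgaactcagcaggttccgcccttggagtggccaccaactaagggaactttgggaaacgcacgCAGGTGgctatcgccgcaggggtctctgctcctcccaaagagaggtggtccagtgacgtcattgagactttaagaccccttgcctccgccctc
Cldn3: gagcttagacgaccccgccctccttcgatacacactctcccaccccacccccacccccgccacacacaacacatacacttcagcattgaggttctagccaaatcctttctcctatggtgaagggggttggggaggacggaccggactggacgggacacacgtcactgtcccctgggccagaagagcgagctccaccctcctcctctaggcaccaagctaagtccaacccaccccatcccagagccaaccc
Cldn4: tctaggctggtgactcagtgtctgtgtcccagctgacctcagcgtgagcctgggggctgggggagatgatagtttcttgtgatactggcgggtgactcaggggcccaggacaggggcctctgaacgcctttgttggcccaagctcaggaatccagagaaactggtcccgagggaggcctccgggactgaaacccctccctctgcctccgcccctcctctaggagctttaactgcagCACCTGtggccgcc
The printed Cldn6 and Cldn4 stretches each hold 1 CACCTG and the Cldn3 stretch holds 0, against 17.2% of the 32851 RefSeq windows of this length with at least 1. With the 50 bases after the start included, Cldn6 and Cldn4 hold 2 each and Cldn3 holds 1, where 20.2% of all windows hold any. Cldn4 also holds 2 matches to the AP-1 motif TGANTCA, read on both strands, in its 250 bases, a motif in 6.75% of all such windows. These matches are descriptions of the letters in these windows. All 9 genes had at least 1 RefSeq window, 13 windows in all. Among the genes not printed, window 2 of Cldn7 and window 2 of Ocln held 2 CACCTG each in the 250 bases. The F11r window held 1 CACCTG and 1 TGANTCA there. Window 1 of Cldn7 and of Ocln, and the windows of Cldn1, Cldn12 and Tjp1, held 0 of either.

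Cldn6 (ENSMUSG00000023906), a claudin best known from embryonic epithelia and from some carcinomas, was the tight junction gene with the clearest difference between the groups. It had 2930 UMIs in B cells and 151 in A cells. Its level was 55.5 CPM of summed UMIs (95% Poisson interval 53.5 to 57.6) in B cells and 3.75 CPM (3.18 to 4.40) in A cells. The intervals do not overlap, and the level in B cells was 14.8-fold that in A cells (log2 ratio 3.89, exact binomial interval 3.65 to 4.13). With 1 library there is no test of this difference. The intervals here and below cover counting error only and not the spread between cultures.

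Cldn6 was spread over B cells at low counts. Without thinning, 26.4% of B cells had a Cldn6 UMI: 1897 cells had 1 UMI, 384 had 2 and 82 had 3 or more, with 8 the highest. After each cell was thinned to 3000 UMIs, to set aside the difference in depth, 14.7% of B cells (Clopper-Pearson interval 13.9 to 15.4%) and 0.945% of A cells (0.738 to 1.19%) had a UMI. The unthinned share of A cells was 1.83%. The variance of the thinned counts in B cells was 1.07 times their mean, where counts that vary by sampling alone give 1. Thinning left out 410 A cells and 109 B cells under 3000 UMIs.

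The few Cldn6 UMIs of A cells were more frequent in A cells that also held a keratin of B cells. Krt7, a ductal keratin, had 1358 CPM in B cells and 53.4 CPM in A cells, so that its level in A cells was 3.93% of that in B cells, and 10.4% of thinned A cells (15.2% unthinned) had a Krt7 UMI. For Cldn6 the level in A cells was 6.75% of that in B cells. A cells with a Krt7 UMI had 7.74 CPM of Cldn6 (5.85 to 10.05), and A cells without one had 2.88 CPM (2.33 to 3.52). There were 0.0702 Cldn6 UMIs per Krt7 UMI in A cells and 0.0409 in B cells. Without the A cells that held a Krt7 UMI and the B cells that held an Acta2 UMI, a choice made after seeing the data, the log2 ratio of Cldn6 was 4.28. Free RNA and mixed droplets were not tested as the source of these UMIs.

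Cldn3 and Cldn7 went the other way and were low. Cldn3 (ENSMUSG00000070473), a strand-forming claudin of most simple epithelia, had 284 UMIs in A cells and 35 in B cells, or 7.05 CPM (6.26 to 7.92) against 0.663 CPM (0.462 to 0.922). The level in A cells was 10.6-fold that in B cells (log2 ratio -3.41, interval -3.96 to -2.90), and the log2 ratio was -4.12 under a stricter cell call (at least 4 marker UMIs and 10 times those of the other list). Cldn7 (ENSMUSG00000018569), a claudin that also sits along the lateral membrane and binds EpCAM, had 44 UMIs in A cells, or 1.09 CPM (0.794 to 1.47), and 0 UMIs in B cells. Taking 3 UMIs over all B cells as the most that a count of 0 allows, Cldn7 was at least 19.2-fold higher in A cells. The exact 95% limit of the ratio is lower, at 14.98-fold, and the 3-UMI bound was 9.14-fold on the thinned sums, which hold fewer UMIs. Both genes lay under the minimum of 10 CPM set for counting differences, so they enter no count.

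Cells with a Cldn3 UMI were a minority of A cells. Of thinned A cells, 1.97% (1.67 to 2.31%) had a Cldn3 UMI and 0.311% (0.197 to 0.466%) had a Cldn7 UMI. In thinned B cells the shares were 0.181% for Cldn3 and 0 of 8827 cells for Cldn7, which allows a share of up to 0.034% by the same 3-count limit (0.0418% by the exact interval). Without thinning, 0.563% of A cells had a Cldn7 UMI and 0.392% of B cells a Cldn3 UMI. For Cldn3 in A cells the unthinned share was 3.38%: 245 cells had 1 UMI, 18 had 2 and 1 had 3. The level of Cldn3 in B cells was 9.41% of that in A cells. For Acta2, a contractile actin that was high in A cells (144 CPM) and low in B cells (5.89 CPM), this figure was 4.10%.

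Cldn12 (ENSMUSG00000046798), a claudin whose tail lacks the usual scaffold-binding end, was a claudin found in both groups that did not differ beyond counting error. It had 12.8 CPM (11.8 to 13.99) in A cells and 12.45 CPM (11.5 to 13.4) in B cells, a log2 ratio of -0.04 (-0.21 to 0.12). The sign turned, to 0.11, when ratios were centred on the median of all genes, and under no other alternative. After thinning, 3.93% of A cells and 3.51% of B cells had a UMI, and unthinned 6.41% and 7.07%. At most 2 UMIs were seen in any cell of either group.

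Cldn1 (ENSMUSG00000022512) and Cldn4 (ENSMUSG00000047501), which are among the main claudins of many epithelia, were close to 0. Cldn1 had 4 UMIs in A cells and 0 in B cells, and Cldn4 had 8 UMIs (0.199 CPM) in A cells and 20 UMIs (0.379 CPM) in B cells. After thinning, 2 of 7406 A cells and 0 of 8827 B cells had a Cldn1 UMI. For Ins2, a beta-cell hormone gene that these cells should lack, the thinned counts were 0 of 7406 A cells, which allows a share of up to 0.0405% by the 3-count limit (0.0498% by the exact interval), and 2 of 8827 B cells. The Cldn1 share of A cells was 0.027%, and unthinned Cldn1 was in 4 A cells and Ins2 in 2, counts too few to tell Cldn1 from background. Cldn4 was in 0.054% of thinned A cells and 0.113% of thinned B cells. Its log2 ratio of 0.93 had an interval from -0.31 to 2.32, so a difference was not detectable at this depth.

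Taken by group, the claudin RNA of the pool had a different make-up in A and in B cells. The 22 claudins in the matrix whose symbol is Cldn and a number summed to 33.2 CPM (31.4 to 35.0) in A cells and 75.04 CPM (72.7 to 77.4) in B cells. Cldn6 made up 73.99% of the claudin UMIs of B cells and 11.3% of those of A cells. Cldn12 made up 38.7% in A cells and 16.6% in B cells. Cldn3 made up 21.3% in A cells and 0.884% in B cells. UMIs from the 3′ end are not scaled for length, so these shares describe how the counts were made up and do not rank the genes. Of the 16 claudins outside the 9 genes, 5 had 0 UMIs in both groups, and the highest mean level over A and B was 3.19 CPM. That was Cldn2, a pore-forming claudin, at 3.92 and 2.46 CPM in A and B cells. Cldn18, a claudin of stomach and lung epithelium, had 0.199 and 2.24 CPM, and Cldn15, a pore-forming claudin of the gut, had 3.70 and 0.644 CPM. Cldn2, Cldn15 and Cldn18 were chosen after their values were seen.

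Ocln (ENSMUSG00000021638) was low in both groups. It had 12 UMIs in A cells, or 0.298 CPM (0.154 to 0.520), and 89 UMIs in B cells, or 1.69 CPM (1.35 to 2.08). The intervals do not overlap, and the log2 ratio was 2.50 (1.63 to 3.51), and 1.66 under the stricter cell call. After thinning, 0.122% of A cells and 0.544% of B cells had an Ocln UMI, each cell with 1, and unthinned 0.154% and 0.996%.

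F11r (ENSMUSG00000038235) and Tjp1 (ENSMUSG00000030516) were found in large shares of both groups. F11r had 115 CPM (111 to 118) in A cells and 110.4 CPM (107.5 to 113) in B cells. Its log2 ratio was -0.06 (-0.11 to -0.00013), and 0.10 when centred on the median of all genes, which moves every gene by the same amount. After thinning, 28.6% of A cells and 26.9% of B cells had a UMI, and unthinned 43.1% and 45.4%, so the order of these shares followed the depth. Tjp1 had 127 CPM (123 to 130.2) in A cells and 186 CPM (182 to 189.8) in B cells, and the intervals do not overlap. Its log2 ratio was 0.55 (0.51 to 0.60), a level 1.47-fold higher in B cells and under the 2-fold mark. After thinning, 31.0% of A cells and 42.3% of B cells had a Tjp1 UMI, and unthinned 45.5% and 63.4%.

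**Figure D1:**
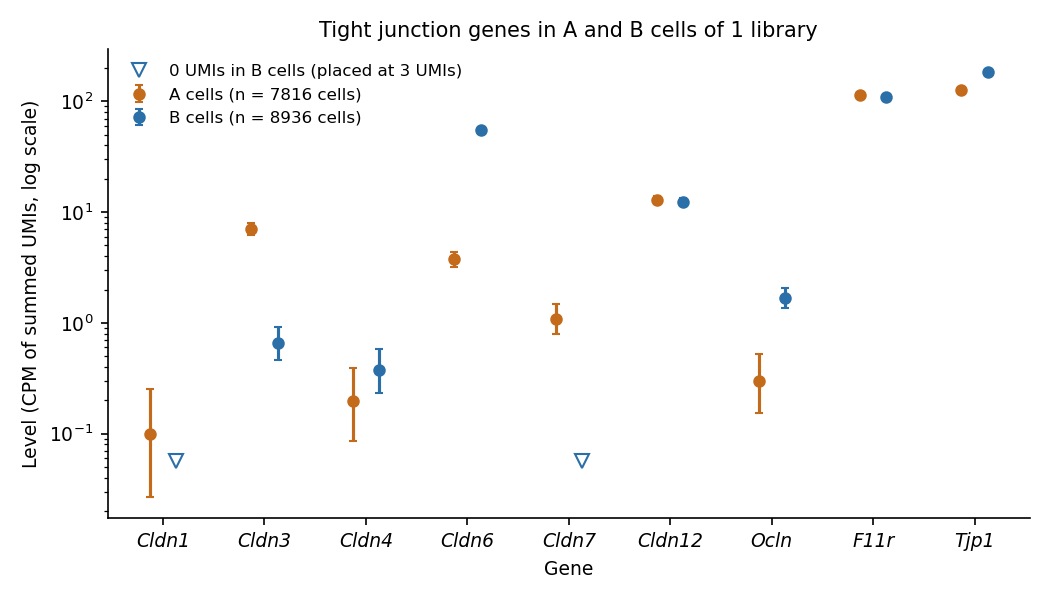
Level of each tight junction gene in A cells (7816 cells) and B cells (8936 cells) of 1 library, in CPM of summed UMIs on a log axis, with 95% Poisson intervals that cover counting error only; open triangles stand for 0 UMIs and are placed at 3 UMIs. Cldn6 is higher in B cells (55.5 against 3.75 CPM), Cldn3 higher in A cells (7.05 against 0.663 CPM), and F11r and Cldn12 lie close together.

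Set beside all genes, 1 of the 4 tight junction genes that reached the minimum for counting was past 2-fold, and the median log2 ratio of the 4 was 0.26. A gene was counted when its mean over A and B cells was at least 10 CPM, and as higher in a group when the ratio was at least 2-fold. Cldn6, Cldn12, Tjp1 and F11r passed the minimum, Cldn6 through its level in B cells, and the other 5 did not. Of the 4, 1 was at least 2-fold higher in B cells (Cldn6) and 0 were higher in A cells, with no test in either case. Of 8240 genes that passed, 6.2% were at least 2-fold higher in B cells and 8.75% in A cells. The median log2 ratio of all 8240 genes was -0.16, so a ratio of 0 lies 0.16 above the median gene. Of all genes past 2-fold, 58.5% were higher in A cells, and 45.7% when ratios were centred on that median.

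**Figure D2:**
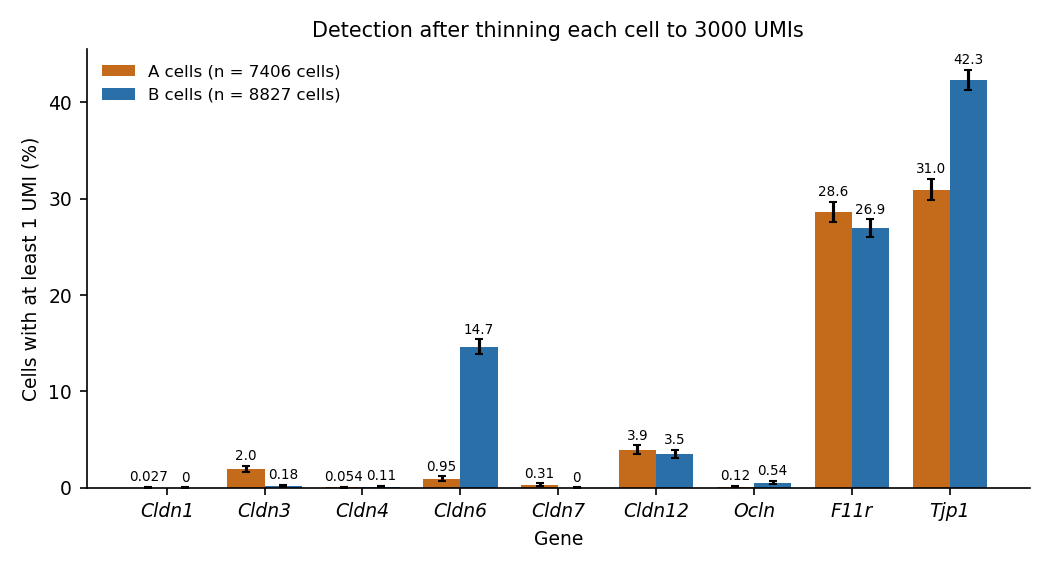
Share of cells with at least 1 UMI of each gene after every cell was thinned to 3000 UMIs, in 7406 A cells and 8827 B cells, with exact Clopper-Pearson intervals as error bars. Tjp1 and F11r are found in 26.9 to 42.3% of cells in either group, Cldn6 in 14.7% of B cells, and every other bar is under 4%.

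The 4609 cells that met neither marker rule lay between the groups for the genes that differed. They had 23.0 CPM of Cldn6, 4.53 CPM of Cldn3 and 138 CPM of Tjp1. Their level was 113 CPM for F11r and 12.4 CPM for Cldn12. Of these cells, 464 had at least 2 UMIs of both marker lists, with a median of 8490.5 UMIs per cell.

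The place of the genes in the genome was set beside their ratios, with chromosomes and gene order from GENCODE M21. Cldn6 lies on chromosome 17, where the other 433 genes counted had a median log2 ratio of -0.42, with 12 at least 2-fold higher in B cells and 58 in A cells. Its ratio of 3.89 thus had the opposite sign to that median. The coding genes on one side of it are Tnfrsf12a, with 443 CPM in A cells and 799 CPM in B cells, and Hcfc1r1, with 89.0 and 122 CPM. On the other side is Cldn9, a close relative of Cldn6, with 0 UMIs in A cells and 4 in B cells. Reads that match both relatives can be lost or split in counting, which was not examined. Tjp1 lies on chromosome 7, where the median was -0.58 over 535 other genes, also opposite in sign to its own ratio of 0.55. Cldn3 and Cldn4 are neighbours on chromosome 5, on opposite strands, with Mettl27 (7.05 and 1.88 CPM) and Abhd11 (31.5 and 23.3 CPM) beside them. Cldn12 is also on chromosome 5, Cldn1 on 16, Cldn7 on 11, Ocln on 13 and F11r on 1.

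Within A cells, Cldn3 was highest in cells of the Epcam state. This state was set as at least 2 UMIs of Epcam, S100g and Tm4sf20 and at least 3 times the UMIs of Tnc, Acta2 and Ptchd4, genes of a contractile state with the mirror rule. The lists came from an earlier clustering of these cells, and 1142 and 2478 A cells met the rules, with medians of 4507 and 5155.5 UMIs. Cldn3 had 17.3 CPM (14.1 to 21.1) in the Epcam state and 3.49 CPM (2.58 to 4.61) in the Tnc state, 4.97-fold apart and with no overlap of the intervals. Cldn7 had 13 UMIs, or 2.32 CPM (1.24 to 3.97), and 4 UMIs, or 0.285 CPM (0.0776 to 0.729). Both claudins were thus higher where Epcam, which chose the state, was higher. Of 8393 genes counted, 2.86% were at least 2-fold higher in the Epcam state and 0.751% in the Tnc state. Of the 4 tight junction genes that could be counted here, 1 was past 2-fold (Cldn3, with a mean of 10.4 CPM over the 2 states). It reached the minimum only through its level in the Epcam state, so this count follows from the difference itself.

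Of the other tight junction genes, Tjp1, Cldn12 and F11r varied less between these states. Tjp1 had 129 CPM in the Epcam state and 127.5 CPM in the Tnc state, and Cldn12 had 13.4 and 12.96 CPM. F11r had 130.3 and 112 CPM, a log2 ratio of 0.22 (0.10 to 0.35). Cldn6 had 10 UMIs (1.79 CPM) in the Epcam state and 58 UMIs (4.13 CPM) in the Tnc state, a log2 ratio of -1.21 (-2.34 to -0.23). Krt7 had 42.2 and 53.0 CPM. Cldn4 and Ocln each had 4 and 3 UMIs, a log2 ratio of 1.74 (-0.82 to 4.51), and Cldn1 had 2 and 2 UMIs. These counts are too few to compare the states. Other junction genes chosen after their values were seen were Tjp3, which encodes ZO-3 (16.3 and 2.78 CPM), and the tricellular receptor gene Ildr1 (51.1 and 22.3 CPM). Counted by Epcam alone, 8.37% (6.66 to 10.3%) of the 920 A cells with an Epcam UMI had a Cldn3 UMI, and 2.71% (2.34 to 3.12%) of the 6896 without. The median depth of these sets was 4769.5 and 4688.5 UMIs. B cells had the same order, with a Cldn3 UMI in 4.64% (1.88 to 9.32%) of the 151 with an Epcam UMI, which is 7 cells. Of the 8785 B cells without an Epcam UMI, 0.319% (0.212 to 0.460%) had one. The median depth of these B cells was 6389 and 5425 UMIs.

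A cells with a Cldn3 UMI had more RNA of some junction genes than the rest and similar levels of others. The 264 such cells had 129 CPM of Tjp1, 106 CPM of F11r and 36.6 CPM of Cdh1, the epithelial cadherin, against 127, 115 and 31.3 CPM in the other 7552. They had 92.6 CPM of Epcam (77.6 to 109.7) against 29.5 CPM (27.9 to 31.3). Ildr1 had 42.2 CPM (32.2 to 54.2) against 29.2 CPM (27.6 to 31.0), and Tjp3 had 11.7 CPM (6.84 to 18.8) against 6.28 CPM (5.52 to 7.12), where the intervals overlap. Cldn3 and Cldn7 were seen together in 3 cells.

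Within B cells, Cldn6 was close to even across the states examined. The Krt14 state (at least 2 UMIs of Krt14 and Sprr1a, squamous keratinocyte genes, and at least 3 times those of Areg, Btc and Cftr) held 541 B cells, and the Areg state, by the mirror rule, held 4714. Cldn6 had 49.9 CPM (42.7 to 57.9) in the Krt14 state and 54.7 CPM (52.0 to 57.5) in the Areg state. Ocln had 12 UMIs, or 3.48 CPM (1.80 to 6.08), and 40 UMIs, or 1.41 CPM (1.01 to 1.92). The log2 ratio of Ocln was 1.30 (0.24 to 2.26), at a mean of 2.44 CPM that is under the minimum for counting. F11r had 131.0 and 107 CPM, a log2 ratio of 0.30 (0.15 to 0.44). Tjp1 went the other way with 165 and 187 CPM, a log2 ratio of -0.18 (-0.30 to -0.05). Cldn12 had 9.27 and 13.4 CPM, a log2 ratio of -0.53 (-1.10 to -0.01). None of the tight junction genes with a mean of at least 10 CPM reached 2-fold. Of all 7949 genes counted, 1.06% were at least 2-fold higher in the Krt14 state and 0.214% in the Areg state.

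**Figure D3:**
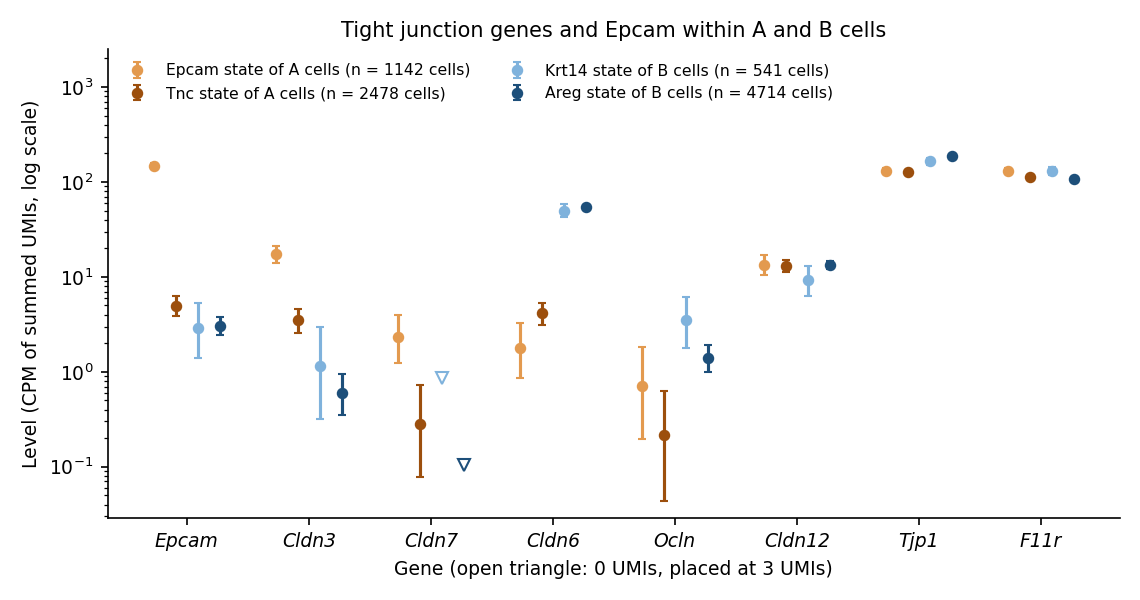
Levels of Epcam and of 7 tight junction genes in 2 states of A cells and 2 states of B cells, in CPM of summed UMIs on a log axis, with 95% Poisson intervals; open triangles stand for 0 UMIs, placed at 3 UMIs. Epcam is part of the rule that set the A states and is no result; Cldn3 stands at 17.3 and 3.49 CPM in the A states, and Cldn6 at 49.9 and 54.7 CPM in the B states.

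The tenth of cells with the most RNA of 8 mitotic genes, such as Top2a and Mki67, differed little from the rest in Tjp1 and F11r. In A cells, Tjp1 had 136 CPM in the 782 mitotic cells and 126 CPM in the other 7034, and F11r had 109 and 115 CPM. In B cells, Tjp1 had 200.2 CPM in the 894 mitotic cells and 184 CPM in the other 8042, and Cldn6 had 50.5 and 56.2 CPM. The log2 ratio of Tjp1 there was 0.12 (0.03 to 0.21). F11r in B cells had 102 and 111 CPM, a log2 ratio of -0.12 (-0.25 to -0.0038). In A cells Cldn3 had 10.4 CPM (7.53 to 13.9) in the mitotic cells and 6.66 CPM (5.85 to 7.56) in the others, a log2 ratio of 0.64 (0.14 to 1.11). Cldn7 had 10 UMIs (2.35 CPM) and 34 UMIs (0.944 CPM), a log2 ratio of 1.32 (0.14 to 2.37), and Cldn6 had 7 UMIs (1.65 CPM) and 144 UMIs (3.997 CPM), a log2 ratio of -1.28 (-2.62 to -0.20). The share of all genes at least 2-fold higher in mitotic cells was 1.06% in A cells and 0.909% in B cells (0.253% and 0.24% lower), and none of the 3 tight junction genes counted in A cells or the 4 in B cells was among them.

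In each group, 7 pairs of tight junction genes had enough cells to be assessed. None of these pairs was seen together in more or fewer cells than the 2 shares give, beyond counting error. For each pair, the thinned cells with UMIs of both genes were divided by the number expected from the product of the 2 shares, for pairs with at least 20 cells expected. Among 7 pairs in A cells the ratio ran from 0.929 to 1.15, with a median of 1.05. Among 7 pairs in B cells it ran from 0.899 to 1.04, with a median of 0.985. The counting interval of each of the 14 ratios included 1. Tjp1 and F11r, the pair with the most cells, were seen together in 687 A cells where 656 were expected (ratio 1.05, 0.97 to 1.13), and in 1025 B cells where 1005 were expected (1.02, 0.958 to 1.08). Cldn6 and Tjp1, strand and scaffold, were seen together in 528 B cells where 547.5 were expected (0.964, 0.884 to 1.05). The other pairs, such as Cldn3 with Cldn7, had too few cells expected for a ratio. Cldn6 and Ocln, a pair of this kind, were seen together in 12 thinned B cells where 7.04 were expected. Without thinning, Ocln was in 1.52% (1.07 to 2.10%) of B cells with a Cldn6 UMI and 0.806% (0.605 to 1.05%) of those without. These 2 sets had medians of 5878 and 5315 UMIs, so depth was not set aside there.

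**Figure D4:**
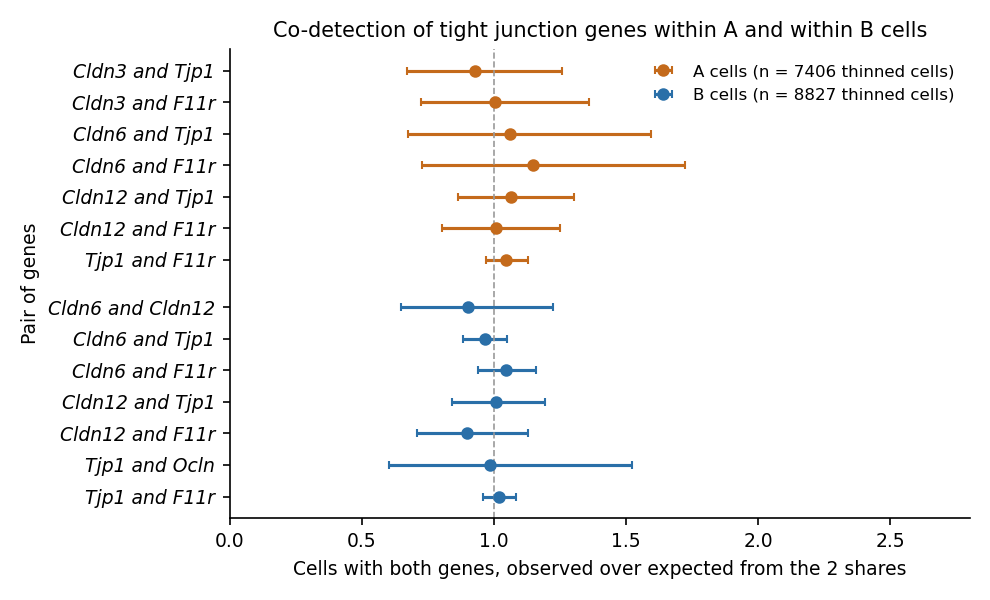
Cells with UMIs of both genes of a pair, divided by the number expected from the 2 shares, for pairs with at least 20 cells expected, within 7406 thinned A cells and within 8827 thinned B cells; bars are 95% Poisson intervals and the dashed line marks 1. All 14 intervals cross 1, and the widest belong to Cldn6 in A cells and to Tjp1 with Ocln in B cells.

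Correlations over cells were as small. Pearson's r of log counts for the same pairs ran from -0.00325 to 0.0263 in A cells and from -0.0121 to 0.00975 in B cells, with medians of 0.00271 and -0.00209. The median r of Tjp1 with all other genes at 50 CPM or more was 0.00237 in A cells and 0.0019 in B cells. For genes in at least 20% of thinned cells, the 3 genes with the highest r were listed. The genes most like Tjp1 were Mecom, Rdh10 and Myo1e in A cells (r from 0.050 to 0.062 over 7406 cells) and Gm47283, Ahnak and Hnrnpa2b1 in B cells (0.057 to 0.065 over 8827 cells). Those most like F11r were Nupr1, S100g and Sult1c2 in A cells (0.056 to 0.075) and Cstb, Nupr1 and Rhoc in B cells (0.041 to 0.047). At counts this sparse, none of these values is a finding about shared expression.

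Per cell, more of the 9 genes had a UMI in B cells than in A cells, through Cldn6 and Tjp1. After thinning, the mean number of the 9 genes with a UMI was 0.669 per A cell (SD over cells 0.707) and 0.882 per B cell (0.781), and the median was 1 in both. Cldn6 and Tjp1 gave 0.319 of the mean in A cells and 0.57 in B cells, and the other 7 genes 0.35 and 0.313, in the opposite order. Unthinned means of all 9 were 1.01 and 1.44. No gene of the 9 was seen in 46.2% of A cells and 34.5% of B cells. At least 1 of the 6 claudins was seen in 7.05% of A cells and 17.9% of B cells, and at least 2 different claudins in 0.189% and 0.532%. Cells without a UMI of a gene cannot be read as cells without its RNA at this depth.

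The wider junction list held 66 further genes, of which 30 reached the minimum. Of these, 3 were at least 2-fold higher in A cells (10%, beside 8.75% of all genes) and 5 in B cells (16.7%, beside 6.2%), and 22 were under 2-fold. Of these 8, 4 (Epcam, Ildr1, Ildr2 and Pard6b) reached the minimum only through the group where they were high, as did 520 of the 1232 genes past 2-fold among all genes. The median log2 ratio was -0.11, beside -0.16 over all genes.

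The receptors of the tricellular junction, the point where 3 cells meet, differed between the groups in opposite directions. Ildr1 had 29.7 CPM (28.0 to 31.4) in A cells and 0.739 CPM (0.526 to 1.01) in B cells, a log2 ratio of -5.33, which ran from -6.63 under the stricter cell call to -4.63 under a looser one (at least 1 marker UMI and more than of the other list). Ildr2 had 2.76 CPM (2.27 to 3.32) in A cells and 49.2 CPM (47.3 to 51.1) in B cells, a log2 ratio of 4.16 (3.799 to 4.86 over the alternatives). Lsr, the third of these related membrane proteins, which recruit tricellulin, had 38.5 and 90.4 CPM, a log2 ratio of 1.23. These were the 3 genes of 5 in the occludin-like and tricellular group that could be counted, all past 2-fold beside 8.75% of all genes in A cells and 6.2% in B cells. Ildr1 and Ildr2 reached the minimum only through the group where they were high. Marveld2, which encodes tricellulin, had 1.99 and 2.71 CPM, and was named after its values were seen.

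Among adhesion proteins of the JAM and CAR family, 2 of 7 could be counted and neither passed 2-fold, beside 8.75% of all genes higher in A cells and 6.2% in B cells, which with 2 genes says little. Jam2 had 68.8 CPM in A cells and 34.7 CPM in B cells, just under the mark at a log2 ratio of -0.99, and passed it in 5 of the 9 alternatives that could move it, which ran from -1.035 to -0.83. Cxadr, the coxsackievirus and adenovirus receptor, had 75.04 and 90.8 CPM. Of those under the minimum, Jaml had 10 UMIs (0.248 CPM) in A cells and 411 UMIs (7.79 CPM) in B cells, and Clmp had 2.28 and 8.28 CPM. In the other groups, genes under the minimum with a higher level in A cells included Tjp3 (6.48 and 1.46 CPM), Pard3b (7.33 and 2.48 CPM) and Spint1, a protease inhibitor gene (74 and 2 UMIs). These 5 genes were named after their values were seen.

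Of the cytoplasmic plaque, 15 of 18 genes could be counted, 2 of them higher in B cells (13.3%, beside 6.2% of all genes) and 0 in A cells (beside 8.75%). Cgn, which encodes cingulin, a protein that links ZO proteins to myosin, had 14.9 and 40.3 CPM, a log2 ratio of 1.44. Amotl2, of the angiomotin family, had 25.6 and 52.9 CPM, a log2 ratio of 1.05 (0.94 to 1.15), and of 0.97 under the looser cell call, which ends the call. Mpdz, a scaffold with many PDZ domains, had a log2 ratio of 0.93, and of 1.08 when centred on the median of all genes.

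Of the polarity genes, 8 of 14 could be counted, with 1 higher in each group (12.5%, beside 8.75% of all genes in A cells and 6.2% in B cells). Pard6b, a PAR complex adaptor, was higher in B cells (6.21 and 30.4 CPM, log2 ratio 2.29). Dlg1, a scaffold of the Scribble group, was higher in A cells (374 and 152 CPM, log2 ratio -1.30). The other 6 were under 2-fold. Of the surface proteases, inhibitors and Epcam family, 2 of 6 could be counted: Epcam was higher in A cells (31.8 and 3.16 CPM, log2 ratio -3.33), and the protease inhibitor gene Spint2 had 239 and 178 CPM.

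**Figure D5:**
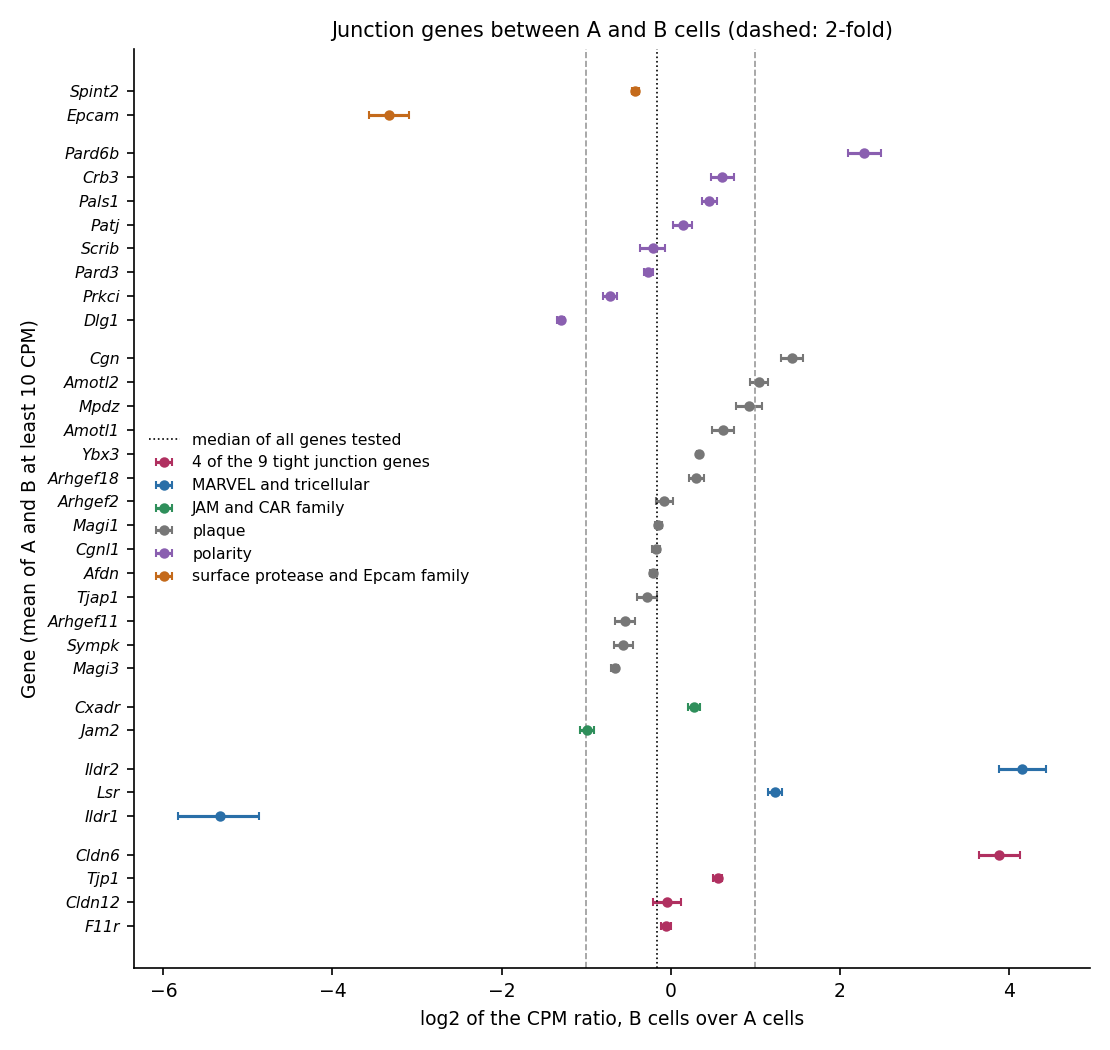
log2 ratio of the level in B cells over that in A cells for the 4 tight junction genes and 29 of the 30 further junction genes with a mean of at least 10 CPM, with exact binomial intervals that cover counting error only; dashed lines mark 2-fold and the dotted line the median of all genes (-0.16). Ildr1 (-5.33) and Epcam (-3.33) lie farthest to the A side, and Ildr2 (4.16) and Cldn6 (3.89) farthest to the B side.

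Adherens junction genes and a list of regulators were also set beside these values. The regulators were transcription factors known to act on claudin genes and the splicing regulators Esrp1 and Esrp2. Of 10 adherens genes, 7 could be counted, of which 3 were at least 2-fold higher in B cells (42.9%, beside 6.2% of all genes) and 0 in A cells (beside 8.75%): Cdh1 (31.5 and 116 CPM), Cdh2, the neural cadherin (27.2 and 199 CPM), and Nectin3 (22.6 and 50.2 CPM). Of the 17 regulators, 9 could be counted, all of them transcription factors, with 5 higher in A cells (55.6%, beside 8.75% of all genes) and 1 in B cells (11.1%, beside 6.2%). Of these 6, Snai2, Twist1 and Zeb2 reached the minimum only through A cells, so their count follows in part from the difference itself. The repressor genes among those higher in A cells were Twist1 (26.8 and 0.853 CPM, log2 ratio -4.97, or -5.82 under the stricter cell call), Zeb2 (27.5 and 8.66 CPM) and Snai2 (23.3 and 8.07 CPM), and Zeb1 had 124.5 and 76.9 CPM, under 2-fold. Cdx2 (110.1 and 39.1 CPM) and Hnf4a (85.4 and 41.2 CPM), gut epithelial factors, were the other 2, though the log2 ratio of Hnf4a was -1.05, stayed past 2-fold in 6 of the 9 alternatives that could move it and was -0.90 when centred on the median of all genes. Klf4, an epithelial factor, was higher in B cells (20.3 and 80.95 CPM). Grhl2, an activator of claudin genes, had 34 UMIs in A cells and 6 in B cells, and its relative Grhl1 had 63 and 287, both named after their values were seen. Whether these factors bear on the claudin levels was not tested.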

How the data were processed

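One 10x Chromium 3′ v4 library of pooled KPCY clones was used. The deposited matrix holds raw UMI counts per gene and barcode, written by Cell Ranger 8.0.1 per the file headers. Build GRCm39 is from the submitters' processing notes. The annotation, the authors' cell filter and whether intronic reads were counted are not given in the sources used here. Intronic counting would raise long genes.

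Cells were kept with at least 2000 UMIs, 1000 genes and at most 15% mitochondrial UMIs. The tight junction genes, the lists and the states were chosen with earlier results of these data known. Doublets were kept unless the A and B rule left them out. Scrublet in scanpy 1.11.5, at an expected rate of 0.08, marked 3.64% of cells, and its removal was an alternative. Levels are CPM from summed counts. A and B cells summed to 40272805 and 52771426 UMIs. Intervals are at 95%: Poisson for levels, exact binomial for ratios, Clopper-Pearson for shares. With 1 library and no replicates, no test was run. UMIs were thinned without replacement to 3000 per cell.

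All 9 genes are named. From the wider lists, genes of at least 10 CPM in A or B were eligible, extremes first, and exceptions are named as such. The values of 1 listed gene are not reported here. Genes most like another were the 3 with the highest r, for genes in at least 20% of thinned cells. Krt7 and Acta2 were references for RNA of the other group. The scripts were tested on simulated data. A count of 0 was bounded at 3 counts. Promoters came from RefSeq on GRCm38.p6.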

Additional observations from a re-analysis of the deposited data

How the results depend on the processing

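Values were recomputed under 15 alternatives of cell filter, A and B call, doublets, thinning depth, minimum level and centring. One of them, leaving out A cells with a Krt7 UMI and B cells with an Acta2 UMI, was chosen after seeing the data. No value past 2-fold changed sign under any of them. Of 906 recomputed values that could move, 793 stayed close (ratios within the main counting interval, counts within 1.5 times). The other 174 were ratios that a change of minimum level cannot move. The interval of a gene with few UMIs is wide, so its ratio could change far and still count as close. The log2 ratio of Cldn6 ran from 3.48 to 4.30, of Cldn3 from -4.12 to -2.97, of Ocln from 1.66 to 2.72 and of Tjp1 from 0.53 to 0.71. F11r ran from -0.10 to 0.10 and Cldn12 from -0.16 to 0.11, where the positive values came only from centring, which moves all genes alike.

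Counts followed the minimum level by construction. At a minimum of 50 CPM, 0 of 2 tight junction genes were higher in B cells, and 1 of 13 wider junction genes was higher in each group, beside 5.63% of all genes in A cells and 5.3% in B cells. At a minimum of 1 CPM, 1 of 5 tight junction genes was higher in A cells (Cldn3, which reached that minimum only through A cells) and 1 in B cells (Cldn6), and of 46 wider genes 6 were higher in A cells and 9 in B cells, beside 13.7% and 9.17% of all genes. Mean genes per A cell were 0.480 at 2000 UMIs, 0.995 at 5000 UMIs and 1.01 unthinned, and per B cell 0.635, 1.31 and 1.44. No paired analysis was possible because there was 1 library and no replicate numbers. Depth limits Cldn1, Cldn4, Cldn7 and Ocln, with at most 89 UMIs in either group.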
